A study of Mus musculus with 32 samples.

Results

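Txnip, which encodes thioredoxin-interacting protein, and 4 arrestin-domain genes, Arrdc1, Arrdc2, Arrdc3 and Arrdc4, were followed through all arrays of a RiboTag study of mouse testis. The 5 genes were chosen by name, with the log2 values of every array already known, so their levels, differences and calls are given as a description and no p is attached to them. Each gene had 1 probe set that named it alone, so 5 of the 35556 probe sets on the array, or 5 of 19920 genes, were members. All 5 passed the filter on low signal in every comparison.

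Alpha-arrestins are adaptor proteins of the arrestin fold. Most family members carry proline-rich motifs that bind ubiquitin ligases of the NEDD4 family and so connect membrane proteins to ubiquitination and endocytosis. Txnip binds reduced thioredoxin and restrains glucose uptake by promoting the internalization of glucose transporters, and its transcription and that of Arrdc4 respond to sugar through the paired factors Mlx and Mlxip (MondoA) or Mlxipl (ChREBP). Arrdc1 is known for the budding of vesicles from the plasma membrane with the ESCRT protein Tsg101, and Arrdc3 for the trafficking of adrenergic receptors and integrins.

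RiboTag mice express a ribosomal protein with a hemagglutinin (HA) tag in the cells where Cre recombinase has acted, so that mRNAs on the ribosomes of those cells can be pulled from a testis homogenate with an antibody to the tag (the IP), while the input holds RNA of the whole testis. All animals were adult mice heterozygous for the RiboTag allele and for a Cre transgene. This was either AMH-Cre, active in Sertoli cells, or Cyp17iCre, active in Leydig cells. In the latter line the study also describes HA staining in scattered tubule cells. From the mRNA enrichment it takes these to be Sertoli cells, so Cyp17iCre IPs can hold some Sertoli RNA. In AMH-Cre: RiboTag mice there were 5 inputs and 5 IPs after saline, and 2 IPs each after the GnRH antagonist acyline (3 days), acyline with FSH for 1 h, acyline with FSH for 4 h, the GnRH antagonist cetrorelix (3 days), and cetrorelix with testosterone. In Cyp17iCre: RiboTag mice there were 3 inputs and 3 IPs after saline, and 2 IPs each after acyline for 4 days, acyline with a single injection of purified human LH for 1 h, and acyline with LH for 4 h. These 32 samples were hybridized 1 to an array and form 12 groups. The 4 arrays from cetrorelix-treated mice count as IPs by their titles and sample type, although 1 other label field calls them input. The study counts its samples as mice, but the labels tie no array to an animal, so the errors below measure the spread between these samples.

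The labelled cell types were checked against marker lists. In AMH-Cre IPs 9 of 9 Sertoli markers were called higher than in the inputs and 6 of 6 Leydig markers lower. In Cyp17iCre IPs 6 of 6 Leydig markers were called higher with a median log2 difference of 3.08, while the 9 Sertoli markers had a median log2 difference of 0.16 and 1 was called higher. Germ cell and macrophage markers were mostly called lower in both kinds of IP. Array medians lay between 6.36 and 6.50 for the IPs and between 6.43 and 6.50 for the inputs, and the mean correlation with the other arrays of a group was at least 0.988.

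The 250 bases before the annotated start of Txnip (chr3:96557707-96557956, plus strand) and of Arrdc4 (chr7:68749239-68749488, minus strand) are printed 5′ to 3′ from RefSeq on GRCm38.p6, because these are the members whose values moved most after LH. Capitals mark every match to the motifs searched in either orientation: the E-box CACGTG, the CCAAT box, TATAAA, the cAMP response element TGACGTCA and the forkhead motif GTAAACA.
Txnip: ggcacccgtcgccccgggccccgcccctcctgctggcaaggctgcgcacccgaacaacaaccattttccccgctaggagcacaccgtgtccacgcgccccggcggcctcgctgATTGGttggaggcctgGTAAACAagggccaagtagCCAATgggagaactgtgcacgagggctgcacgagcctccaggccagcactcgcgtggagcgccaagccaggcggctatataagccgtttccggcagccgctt
Arrdc4: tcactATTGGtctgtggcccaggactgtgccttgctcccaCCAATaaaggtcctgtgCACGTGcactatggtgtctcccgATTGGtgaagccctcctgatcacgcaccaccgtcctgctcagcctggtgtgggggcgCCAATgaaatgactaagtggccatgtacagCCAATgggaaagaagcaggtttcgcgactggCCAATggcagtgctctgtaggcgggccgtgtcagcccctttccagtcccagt
No match overlaps another in these stretches. In the full 300-base windows, which run on past the start, Txnip held 2 CCAAT boxes, at 137 and 102 bases before the start, with a forkhead motif between them at 121 bases before it. Arrdc4 held 6 CCAAT boxes and 1 E-box, 193 bases before the start. Of 32851 RefSeq windows of the same length, 37.4% held a CCAAT box, 0.0791% held 6 or more, 7.15% held the E-box, 3.65% the forkhead motif, 13.6% TATAAA and 1.79% the cAMP response element. Neither TATAAA nor the cAMP response element matched in a window of any member. Only exact matches were searched, so variants such as imperfect E-boxes or other forms of the TATA box are neither marked nor counted. Arrdc2 held 3 CCAAT boxes in its window, Arrdc1 none of the motifs, and Arrdc3, which has 3 annotated starts, 1 CCAAT box that lies in 2 overlapping windows and none in the remaining window.

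Txnip was the member with the widest range. In the saline IPs of Cyp17iCre mice its log2 values were 12.42, 12.51 and 12.33, against 9.96, 9.94 and 9.87 in the matching inputs. The 2 sets did not overlap, and the IP stood 2.50 ± 0.08 above the input (log2 difference ± SE), a 5.67-fold enrichment in the Leydig IP. In AMH-Cre mice the order was the opposite. The saline IPs gave 9.38, 9.26, 9.37, 9.33 and 9.15 and the inputs 9.64, 9.53, 9.76, 9.67 and 9.92, so that every IP lay below every input, by −0.41 ± 0.08. Because equal amounts of RNA were compared, these differences describe the share of Txnip in each RNA pool, and fewer cells of a type cannot be told apart from less RNA per cell. Between IP and input a difference was called where the fold was at least 2 and the adjusted p under 0.05. Txnip was the 1 member of 5 called in the Leydig enrichment, where 21.7% of all probe sets tested were called. In the Sertoli enrichment 0 of 5 were called, where 24.1% of all probe sets were. Every uncalled member was short of the fold of 2, so dropping the adjustment of the p could not change these counts.

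**Figure D1:**
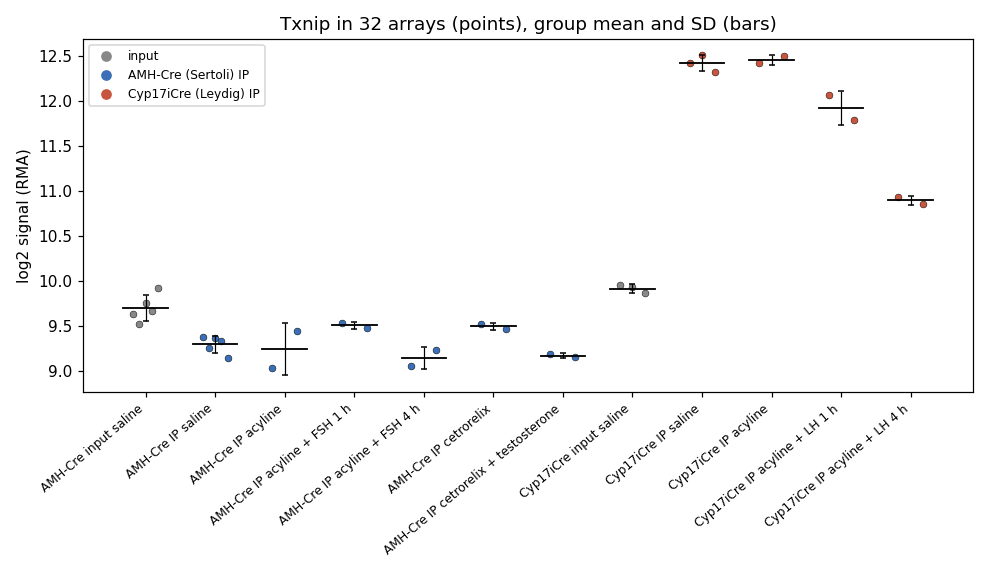
Log2 signal (RMA) of Txnip on the vertical axis in each of the 32 arrays, by group along the horizontal axis, with the group mean as a horizontal line and the SD as a bar; inputs are gray, AMH-Cre IPs blue and Cyp17iCre IPs red. The 9 Cyp17iCre IPs lie between 10.86 and 12.51, above all inputs (9.53 to 9.96) and all 15 AMH-Cre IPs (9.04 to 9.54), and the arrays 4 h after LH are the lowest of the Cyp17iCre IPs.

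Across the 12 groups the mean level of Txnip ran from 12.46 in the Leydig IP after acyline to 9.15 in the Sertoli IP after acyline and FSH for 4 h. The saline and acyline groups of Leydig IPs overlapped at the top. The Leydig IPs at 1 h and at 4 h of LH each stood apart from their neighbours in this order, while the inputs of both lines overlapped each other. Among Sertoli IPs the cetrorelix arrays stood apart from the saline arrays below them, and the other neighbours overlapped. The within-group SD, pooled over all groups, was 0.12.

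Between the saline IPs themselves, where Cre line and cell type cannot be told apart and a call requires a fold of at least 1.5, Txnip was 3.12 ± 0.09 higher in Leydig than in Sertoli IPs (8.72-fold). Arrdc3 was the other member called there, in the opposite direction. These were 2 of 5 members, beside 25.7% of all probe sets tested. Only 191 of 25399 probe sets had a higher difference than Txnip.

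Arrdc3 followed the reverse pattern. Its saline Leydig IPs measured 8.77, 8.70 and 8.86 and the Cyp17iCre inputs 9.54, 9.67 and 9.59, with no overlap, a log2 difference of −0.82 ± 0.08 that stayed short of the fold of 2. Saline Sertoli IPs gave 9.71, 9.81, 9.90, 9.61 and 9.65, against 9.60, 9.59, 9.61, 9.52 and 9.64 in the inputs. Here the ranges overlapped, and the difference was 0.14 ± 0.06. Between Leydig and Sertoli IPs the difference was −0.96 ± 0.09, and all 9 Leydig IPs (8.47 to 9.01) lay below all 15 Sertoli IPs (9.61 to 10.01) and all 8 inputs (9.52 to 9.67). Over the 12 group means Arrdc3 and Txnip had a Pearson correlation of −0.97, a description of points that share arrays and the division between the Cre lines. The part of RNA from other cells in these IPs in the Arrdc3 value was not tested.

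Arrdc1 was higher in both kinds of IP than in the inputs. Sertoli IPs after saline measured 7.23, 7.27, 7.24, 7.22 and 6.85, and the inputs 6.61, 6.33, 6.62, 6.57 and 6.49. Leydig IPs measured 6.92, 6.81 and 6.88 and their inputs 6.07, 6.21 and 6.12. In neither line did IPs and inputs overlap. The log2 differences were 0.64 ± 0.09 in Sertoli and 0.74 ± 0.07 in Leydig IPs, 1.56-fold and 1.67-fold, short of the fold of 2. The inputs of the lines also stood apart for this gene, with means of 6.52 ± 0.12 (SD, n = 5) in AMH-Cre and 6.13 ± 0.07 (SD, n = 3) in Cyp17iCre mice, although both are whole testis after saline.

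Arrdc4 differed less between fractions. Its inputs spanned 7.09 to 7.39 in all 8 arrays. Saline Leydig IPs measured 7.61, 7.52 and 7.55, above the Cyp17iCre inputs at 7.09, 7.10 and 7.31 by 0.39 ± 0.08, and saline Sertoli IPs measured 7.43, 7.29, 7.45, 7.36 and 7.17, which overlapped their inputs. Arrdc2 hardly moved. All 32 of its values lay between 6.46 and 6.86, its group means spanned 0.25, and its difference between IP and input was 0.04 ± 0.07 in Leydig and −0.0021 ± 0.06 in Sertoli IPs.

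**Figure D2:**
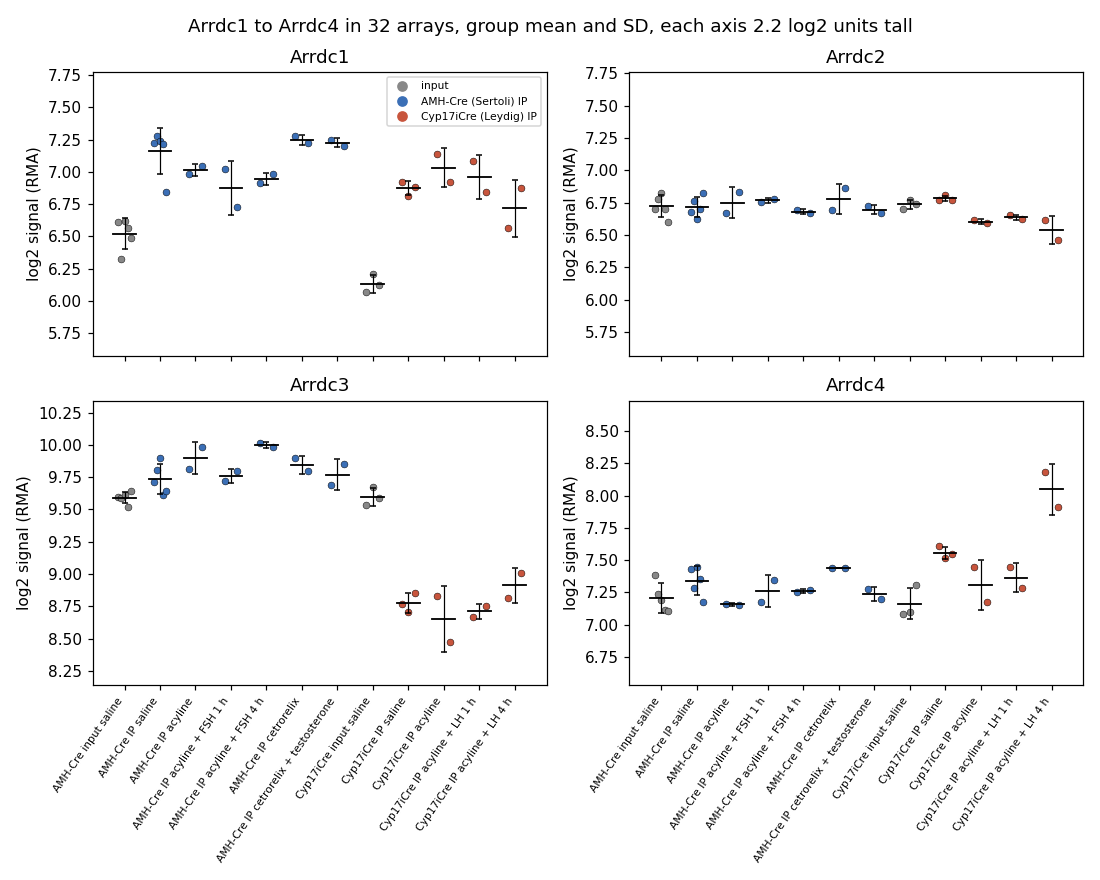
Log2 signal (RMA) of Arrdc1, Arrdc2, Arrdc3 and Arrdc4 in each of the 32 arrays by group, with group mean and SD; every vertical axis covers the same span on the log2 scale, and colours mark input (gray), AMH-Cre IP (blue) and Cyp17iCre IP (red). Arrdc3 is lowest in the Cyp17iCre IPs, Arrdc1 lowest in the inputs, Arrdc4 highest in the LH 4 h arrays, and Arrdc2 stays between 6.46 and 6.86.

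Suppression of gonadotropins with acyline and their replacement with LH were then compared within the Leydig IPs. These comparisons share arrays: both LH times are set against the same 2 acyline arrays, which are also the ones set against saline. Txnip measured 12.42 and 12.50 after acyline, within the range of the 3 saline values, and the difference of 0.04 ± 0.11 was not called. At 1 h of LH it measured 12.07 and 11.80, below all saline and acyline arrays, with a difference from acyline of −0.53 ± 0.12 that was not called either. At 4 h of LH it measured 10.94 and 10.86. Both arrays lay below every other Leydig IP and above every input, and the level had fallen by 1.56 on the log2 scale (SE 0.12), to 0.339 of the acyline level. Between 1 h and 4 h the difference was −1.03 ± 0.12.

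Txnip was the 1 member of 5 called at 4 h against acyline, where 0.613% of all probe sets tested were called, and the 1 called at 4 h against 1 h, where 0.200% were. No member was called after acyline, with 0.143% of all probe sets called, or at 1 h of LH, with 0.00818%. At 4 h, 9 of 24461 probe sets had a lower difference from acyline than Txnip. The call at 4 h against acyline was lost without acyline IP 2 (−1.52) and without LH 4 h IP 1 (−1.60), and also where variances were not moderated, where only the groups compared were fitted and with the replicate number as a block. The call at 4 h against 1 h was lost when any of 7 of the 9 Leydig IPs was left out, with values from −1.07 to −0.90.

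Arrdc4 had its highest values at 4 h. It measured 7.44 and 7.17 after acyline, 7.44 and 7.29 at 1 h of LH, and 8.18 and 7.91 at 4 h. The 4 h arrays were the highest 2 of all 32, the next being a saline Leydig IP at 7.61. The difference from acyline was 0.06 ± 0.13 at 1 h and 0.74 ± 0.13 at 4 h, the latter 1.67-fold, and 4 h exceeded 1 h by 0.68 ± 0.13. The fold passed 1.5 at 4 h but the adjusted p did not pass its threshold. With each array centred on its median the difference at 4 h was 0.81 and was called, and without LH 4 h IP 2 it was 0.88 and was called. The medians of both LH 4 h arrays were at most 6.41, against 6.47 to 6.50 for the other Leydig IPs.

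Arrdc3 measured 8.83 and 8.47 after acyline, 8.67 and 8.75 at 1 h and 8.82 and 9.01 at 4 h of LH. The 4 h values overlapped both acyline and saline, and the difference from acyline was 0.26 ± 0.14, or 0.083 to 0.44 with 1 array left out. For Arrdc1 the values were 7.14 and 6.92, then 7.08 and 6.84, then 6.56 and 6.87, with a difference at 4 h of −0.31 ± 0.14, or −0.47 to −0.16 with 1 array left out. Arrdc2 differed at 4 h by −0.07 ± 0.09. None of these 3 was called at either time.

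**Figure D3:**
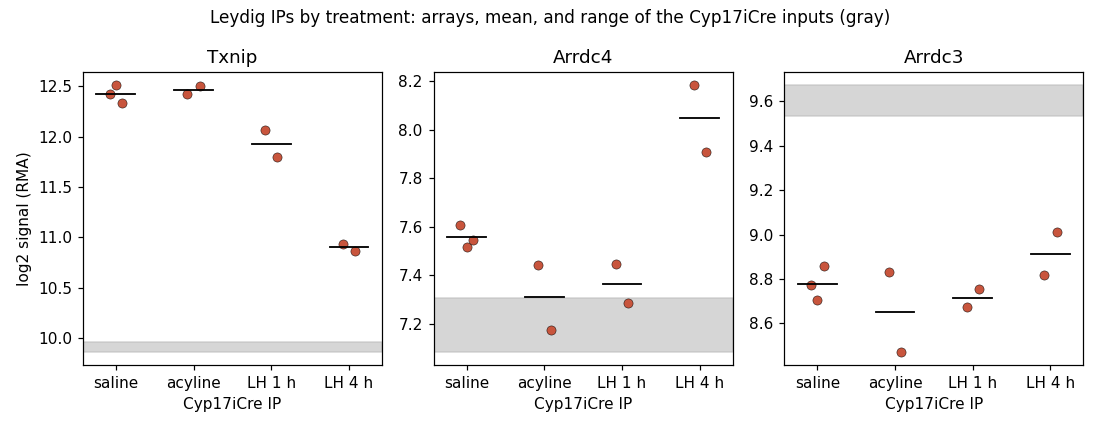
Log2 signal (RMA) of Txnip, Arrdc4 and Arrdc3 in the Cyp17iCre IPs after saline, acyline, and acyline with LH for 1 h or 4 h; points are arrays, lines are group means, the gray band is the range of the Cyp17iCre inputs, and the vertical axes differ. Txnip drops to 10.94 and 10.86 at 4 h but stays above the inputs, Arrdc4 reaches 8.18 and 7.91, and Arrdc3 stays below its inputs throughout.

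Cell type markers were read over the same Leydig IPs. The mean log2 level of the 6 Leydig markers ranged from 12.58 to 12.64 after saline, 12.13 to 12.31 after acyline, 12.26 to 12.35 at 1 h and 12.49 to 12.70 at 4 h of LH. The mean of the 9 Sertoli markers ranged from 8.65 to 8.92 after acyline and from 8.50 to 8.91 at 4 h. None of these markers was called in the LH comparisons, and the 6 Leydig markers had a median difference of 0.23 at 4 h against acyline. This list holds genes of steroid synthesis such as Star, which are themselves known to respond to LH, and the part of cell composition in the Txnip value was not tested.

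In Sertoli IPs no member was called after any hormone manipulation. Against saline, Txnip differed by −0.06 ± 0.10 after acyline (9.04 and 9.45) and by 0.20 ± 0.10 after cetrorelix (9.53 and 9.47). Testosterone after cetrorelix gave 9.19 and 9.16, below both cetrorelix arrays, a difference of −0.33 ± 0.12. FSH for 1 h gave 9.54 and 9.48, above both acyline arrays, by 0.27 ± 0.12. In the same comparison the 6 spermatocyte and spermatogonium markers had a median difference of 0.59, their mean level being 8.37 to 8.89 with FSH against 8.10 to 8.14 with acyline; none was called, and their part in the Txnip value was not tested. FSH for 4 h gave 9.06 and 9.24, which overlapped acyline, with a difference of −0.09 ± 0.12. The other 4 members differed by between −0.20 and 0.16 in these 5 comparisons, and over all members the SE was between 0.07 and 0.13. Few probe sets of any kind were called: 0.00406% for acyline, 0.0122% for cetrorelix, 0.00406% for testosterone, 0% for FSH at 1 h and 0.0203% for FSH at 4 h. In the same order the 6 Leydig markers had median differences of −0.71, −0.56, 0.07, 0.12 and 0.19 in these Sertoli IPs. Of these markers 1 was called lower after acyline and 1 higher at 4 h of FSH. The part of Leydig RNA in the Txnip values of the Sertoli IPs was not tested. With p unadjusted, 399 of 24648 probe sets passed at FSH 1 h. No member could pass there, because the largest member difference, 0.27 for Txnip, was short of the fold of 1.5. The acyline effect in Leydig minus that in Sertoli IPs lay between −0.29 and 0.30 for the members, and 0 of 5 were called beside 0.0669% of all probe sets. Acyline was given for 4 days in the first line and 3 in the second, which cannot be told apart from the line.

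**Figure D4:**
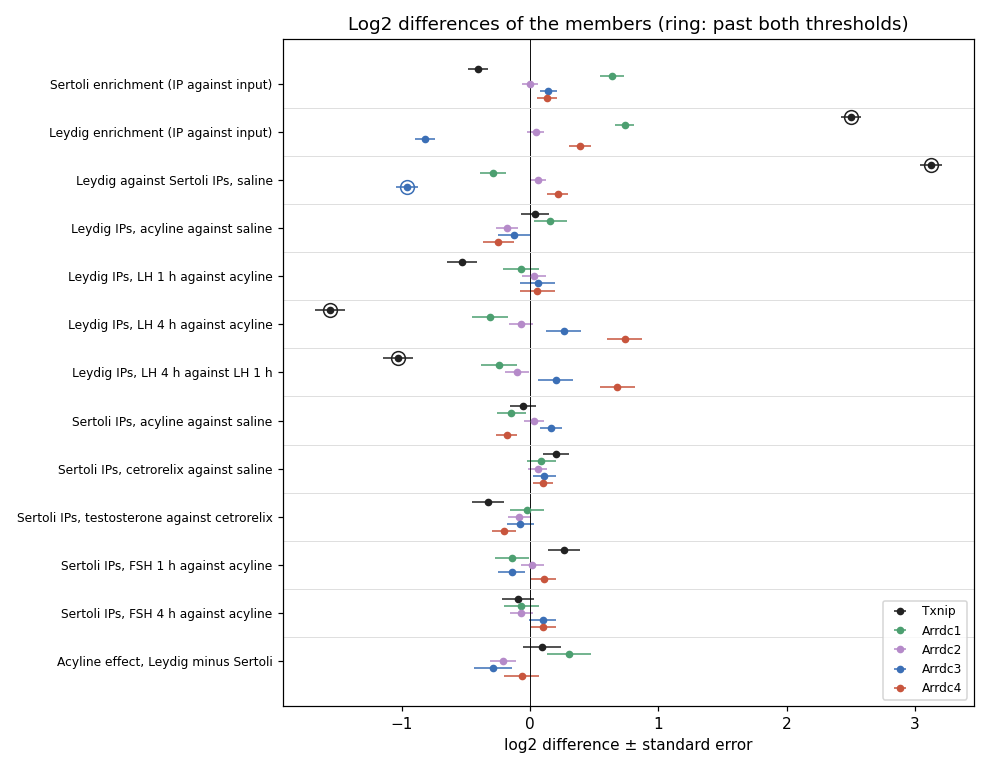
Log2 difference with its standard error for each member (colours) in each of the 13 comparisons (rows), where a ring marks a difference past both thresholds. Of 65 differences 5 are ringed: Txnip in the Leydig enrichment, in Leydig against Sertoli IPs, and at LH 4 h against acyline and against LH 1 h, and Arrdc3 in Leydig against Sertoli IPs.

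Partners and pathway genes were taken from lists drawn up by known role but with earlier results of these samples known, so the adjusted p values of their genes are not independent evidence. The shares of all probe sets called, against which the list counts are to be read, were 24.1% in the Sertoli enrichment, 21.7% in the Leydig enrichment and 25.7% between the IPs. The list of the thioredoxin system, named for the thioredoxin that Txnip binds, also holds reductases, peroxiredoxins and glutaredoxin. Among its 12 measured genes 7 were called higher in the Leydig IP than in the input and 0 lower. The 12 genes had a median log2 difference of 1.47 beside −0.03 over all probe sets. Glrx (glutaredoxin) led at 9.99-fold (log2 3.32 ± 0.10, adjusted p = 2.74e-07, limma), followed by Prdx3 at 6.29-fold, and Txn1, thioredoxin itself, stood at 4.62-fold. In the Sertoli IP 4 of 12 were called higher, led by Prdx3 and Prdx2, with a median of 0.35. Between the IPs Glrx, Prdx1 and Txn1 were called higher in Leydig, by 11.1-fold, 3.68-fold and 2.01-fold, and 0 were called lower.

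The list of Mlx, Mlxip, Mlxipl and the Max-like repressors Mnt, Mxd1 and Mxd4 had another distribution. Of these 6 genes 0 were called in the Leydig enrichment, and Mlxipl (ChREBP) was called in the Sertoli enrichment at 2.10-fold. Between the IPs Mlxip, Mlxipl and Mxd1, a repressor that pairs with Max or Mlx, were called lower in Leydig, with ratios of 0.576, 0.537 and 0.441. Of 11 tested glucose transporters and hexokinases 0 were called higher and 4 lower in Leydig than in Sertoli IPs, where 25.7% of all probe sets were called in either direction. They included the transporter Slc2a12 (log2 −2.93 ± 0.13, adjusted p = 3.22e-12, limma), hexokinase Hk2 (−2.26 ± 0.11) and the transporter Slc2a1 (−0.67 ± 0.09). Slc2a1 was nevertheless enriched in both kinds of IP, at 4.09-fold in Sertoli and 2.79-fold in Leydig, while the transporter Slc2a3 was called lower than input in both.

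Among 11 NEDD4-family ligases and adaptors, 3 were called higher and 1 lower in the Sertoli IP, and 3 higher and 2 lower in the Leydig IP. The list had median log2 differences of −0.49 in Sertoli and −0.46 in Leydig IPs, beside −0.03 over all probe sets. Nedd4, Nedd4l and Ndfip1 were called higher in both kinds of IP, Nedd4 by 3.67-fold in Sertoli and 4.42-fold in Leydig. Hecw1 was called lower in both. Wwp1 was the 1 gene of this list called between the IPs, higher in Leydig by 2.51-fold. Of the ESCRT genes 2 of 7 were called higher in the Sertoli IP and 1 of 7 in the Leydig IP, shares near those of all probe sets, and Pdcd6ip (Alix) was in both counts. Tsg101 was called lower in Leydig than in Sertoli IPs (0.645) and Vps28 higher (1.82-fold).

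Among other genes with an arrestin fold, Arrdc5 was the closest in name. It measured 10.26 to 10.61 in the 8 inputs and 7.52 to 8.63 in the 24 IPs, with no overlap, and was called lower than input in both lines, by −2.38 ± 0.08 in Sertoli and −2.73 ± 0.08 in Leydig. Of 8 tested genes of this list, 1 was called higher and 1 lower in the Sertoli IP, and 2 higher and 1 lower in the Leydig IP. The list medians were −0.21 and −0.05. Vps26b, a retromer subunit, was called higher than input in both IPs, and the beta-arrestin Arrb1 in the Leydig IP at 2.38-fold. Between the IPs Arrb2 was called higher in Leydig, by 1.68-fold. Vps26b and Vps26c were called lower there, with ratios of 0.608 and 0.637.

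FOXO factors and glucocorticoids are known to act on Txnip in other tissues. A list of FOXO factors, the glucocorticoid receptor Nr3c1 and genes responsive to them had 7 of 15 called higher than input in each line and 0 lower. The calls included the factors Foxo1 and Foxo3 themselves in both lines, and Foxo4 in Leydig. The leading ones in Leydig were Pdk4, a kinase that restrains glucose oxidation, at 10.4-fold and the factor Klf15 at 6.23-fold, and in Sertoli Sesn1 at 4.15-fold and Foxo3 at 4.00-fold. Between the IPs 4 were called higher and 5 lower in Leydig, Pdk4 by 15.2-fold and Sgk1 at a ratio of 0.296.

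Few list genes were called after hormones, as few probe sets were in all (0.00818% to 0.613% in the Leydig hormone comparisons). Over the 4 Leydig hormone comparisons and 69 tested genes of the 7 lists, 0 calls were higher and 1 was lower, Foxo3 at 4 h of LH against acyline (log2 −0.81 ± 0.14, adjusted p = 0.0487, limma), and this call held in 3 of 18 alternative settings, with adjusted p between 0.0166 and 0.3 where p was adjusted. Of the 9 Leydig IPs left out in turn, LH 4 h IP 2 was the 1 without which it held. The list medians lay between −0.23 and 0.12. A list gene can have a large difference without a call. Bcl6, a repressor under FOXO control, is named here after its value was seen. It differed by −1.23 ± 0.20 at 1 h of LH against acyline (adjusted p = 0.493, limma) and by −0.77 ± 0.20 at 4 h (adjusted p = 0.113, limma). The study itself lists Bcl6 as lowered at least 2-fold at 1 h of LH. Its rule asks for p under 0.05 and names no adjustment. At 4 h of LH the 6 genes of the Mlx and Max-like list had a median of −0.21, with Mlxipl at −0.26 ± 0.16 (adjusted p = 0.415), Mlxip at −0.18 ± 0.14 (0.519) and Mlx at 0.19 (0.525). Over the 5 Sertoli hormone comparisons 0 genes of the 7 lists were called in either direction, and the medians of these lists lay between −0.14 and 0.10.

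The genes whose 12 group means followed a member most closely were searched among 16059 genes. For Txnip these were Ggt5 (Pearson r = 0.99), Plekhg3 (0.99) and Mgmt (0.99), and their log2 differences at 4 h of LH against acyline were −0.58, −0.63 and −0.39. For Arrdc4 they were Gch1 (0.93), which makes the pterin cofactor of hydroxylases, Slc16a3 (0.92), a lactate exporter, and Ksr1 (0.92), with differences at 4 h of LH of 1.47, 3.24 and 0.79. For Arrdc3 they were Mgat4a, S100pbp and Taf7, each at 0.99. For Arrdc1 they were Tor1a (0.97), Fance (0.96) and E130311K13Rik (0.96), and for Arrdc2, whose group means span 0.25 against a pooled within-group SD of 0.07, Krt33b (0.93), Cxcl14 (0.89) and Krt71 (0.85). The points share arrays and the division into IPs and inputs, and the likeness is a description only. The group means used to pick these genes include acyline and LH 4 h, so their differences at 4 h are not separate evidence. Gch1 did not pass the signal filter in the enrichment fits. Its group mean was 6.33 at 4 h of LH and at most 5.08 in every other group.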

How the data were processed

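RNA of testis inputs and anti-HA immunoprecipitates was hybridized to Affymetrix Mouse Gene 1.0 ST arrays, 32 in all. The authors normalized the arrays with RMA (version not given in the sources used here) and deposited log2 values for 35556 probe sets; no raw array data were used here. Of these probe sets 21789 name 1 gene symbol, 1621 name several and 12146 are not in the probe table used; 21698 matched RefSeq gene IDs and 23 symbols were updated. The number of arrays limits the precision.

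Groups came from the labels. With R 4.3.3, limma 3.58.1 and Python 3.11.15, probe sets with a linear signal over 50 in at least 1 array of a fit were tested with moderated contrasts and Benjamini-Hochberg adjustment over all of them. Calls needed a fold of at least 2 for enrichment over input, or 1.5 for other contrasts, with the adjusted p under 0.05. The enrichment fits used the saline IPs and inputs of 1 line, the hormone fits all IPs of 1 line, and the fit between lines all IPs. Residual degrees of freedom were 8 and 4 for Sertoli and Leydig enrichment, 9 and 5 for hormones and 14 over all IPs. The fits were tested on simulated data. Genes with several probe sets were represented by that of highest mean level.

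The members and all lists were chosen with earlier results of these data known. Every member is given, and of each list the counts called and at most 4 called genes per comparison with the largest differences (of lists of at most 6 genes any may be named), with the 3 genes of most similar pattern per member. Prdx5, Prdx6, Rhox5 and Lhcgr have no probe set named for them alone here. Alternatives were: no filter, median-centred arrays, quantile normalization, no moderated variances, no adjustment, fits of only the groups compared, a replicate block, only replicates 1 to 3 of Sertoli saline, and leaving out each array. A crossed replicate block and leaving out the LH 1 h arrays were added after seeing the data.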

Additional observations from a re-analysis of the deposited data

Results flagged for a closer look

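Of 10 combinations of a member and a group of 5 arrays, 1 held an array far from the rest: the lowest Sertoli saline IP for Arrdc1, at 6.85, where the gap to the next array was 0.869 of the group's range. Chance passes the limit used for this flag in about 1 of 20 groups, and the gap here lay beyond that limit.

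Txnip differed between IP and input by 2.50 in Cyp17iCre mice, where every IP lay above the input mean, and by −0.41 in AMH-Cre mice, where every IP lay below it. Arrdc3 had the opposite signs, with −0.82 in Cyp17iCre and 0.14 in AMH-Cre mice. The difference between the lines in these contrasts was not tested.

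The LH effect on Txnip at 4 h differed from that at 1 h by −1.03, past both thresholds in the fit of all Leydig IPs, as a description of a member chosen with its values known.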

How the results depend on the processing

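Over all alternatives, 1304 differences of members either kept their call and sign or stayed uncalled within the pooled within-group SD of the reported value. A further 55 uncalled ones moved by more than this SD, 16 lost a call, 5 gained one and 0 of the called ones reversed. These cases include arrays left out that are not in the groups compared, where the difference itself does not change. Txnip in the Leydig enrichment kept its call in 12 of 12 alternatives (2.46 to 2.55), and Txnip and Arrdc3 in Leydig against Sertoli IPs in 32 of 32. At LH 4 h against acyline Txnip kept its call in 13 of 18 alternatives, and its value lay between −1.60 and −1.49. The 13 include the crossed replicate block and the fit without the LH 1 h arrays, both added after seeing the data. The call was lost, at −1.56 and with 0 members called, without moderated variances, with only the groups compared, and with the replicate block; 2 members were called with median-centred arrays and with no p-value adjustment. With arrays left out 1 at a time the value ranged from −1.60 to −1.52 and the members called from 0 to 2. At LH 4 h against 1 h Txnip kept its call in 5 of 16 alternatives. It lost it, at −1.03 and with 0 members called, with no filter, without moderated variances, with only the groups compared and with the replicate block, and 2 members were called with no p-value adjustment; with arrays left out it ranged from −1.16 to −0.90, with 0 to 2 members called. Values of Txnip that were not called also depended on single arrays: leaving out 1 array gave −0.66 to −0.40 at LH 1 h, and, through the 2 Sertoli acyline arrays, −0.26 to 0.15 for acyline, 0.062 to 0.47 for FSH 1 h, −0.30 to 0.11 for FSH 4 h and −0.11 to 0.30 for the difference in acyline effect.

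Replicate numbers are shared between groups. The paper compares IPs with their respective inputs, but the labels do not say whether equal numbers mark the same homogenate. Correlations of same-numbered deviations ran from −0.15 to 0.15, and some but not all arrays correlated best with their own number. Groups this small cannot show whether the numbers mark pairs, and the reported fits treated the arrays as unpaired. The replicate block moved no other member call. The cause of the lost calls was not tested. Since acyline and LH 4 h gave −0.15, and cetrorelix and testosterone −0.14, a crossed replicate block was added. With it Txnip kept its call at LH 4 h. The crossing was chosen from the deviations themselves, which can favour a call, so the kept call is no added support.

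Counts over all probe sets depended on the settings in the hormone comparisons: at LH 4 h against acyline 150 as reported, and 1 to 924 otherwise; at 4 h against 1 h 49, and 0 to 786; at LH 1 h 2, and 0 to 295; after Leydig acyline 35, and 0 to 837; for the acyline difference 17, and 5 to 582; in Sertoli IPs 1, 3, 1, 0 and 5 for acyline, cetrorelix, testosterone, FSH 1 h and FSH 4 h, with highest counts of 161, 136, 233, 399 and 211. The highest count was in each case without adjustment of p.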
